A study of Mus musculus with 6 samples.

Results

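The enzymes that write and erase histone marks were followed in mouse embryonic stem cells that lack Mettl5. Members were chosen by name from a table of ribosome footprints, as genes whose symbol starts with Kdm, Kmt, Setd, Hdac, Kat, Sirt, Prmt, Ezh, Ehmt or Nsd in its numbered or lettered form, together with Eed and Suz12. This gave 69 of the 9093 genes in the table: 15 demethylases, 32 methyltransferases (with the noncatalytic subunits Eed and Suz12), 8 acetyltransferases and 14 deacetylases. Names decide membership, so mitochondrial sirtuins and Setd4 are included, while Dot1l, Crebbp and other enzymes named differently are not. Histone tails carry acetyl and methyl groups that are added by one set of enzymes and removed by another. In embryonic stem cells, methylation of H3 lysine 27 by Polycomb repressive complex 2 (PRC2) keeps developmental genes silent, methylation of H3 lysine 4 marks promoters and enhancers, and methylation of H3 lysine 9 silences retroviral elements. Acetylation opens chromatin, and deacetylases act mostly within corepressor complexes.

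The groups were Mettl5 knockout (KO) footprints in 2 libraries, wild-type (WT) footprints in 2 libraries, KO input mRNA in 1 library and WT input mRNA in 1 library. Mettl5 encodes a methyltransferase of 18S ribosomal RNA that makes N6-methyladenosine, and the KO cells were made with CRISPR/Cas9, with the number of clones not given in the labels. All cells came from a cross of 129Sv females with C57BL/6 BVSC males and grew in N2B27 medium with PD0325901 (1 µM), CHIR99021 (3 µM) and leukemia inhibitory factor (1000 U per ml), which hold the naive state. Cycloheximide was given to every culture before lysis, to hold ribosomes on the mRNA. Separate cultures are not named in the labels. The p-values therefore rest on library-to-library variation alone, which may be technical. Replicate footprint libraries differed little beyond read sampling. The chi-square per degree of freedom was 1.24 for KO and 1.44 for WT, where sampling alone gives about 1. The variation beyond sampling was put at 2.5% by edgeR. A small p-value is thus not shown to measure variation between cultures.

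Footprint libraries held 2060010 and 3472613 reads for KO and 3524739 and 8675267 reads for WT. Mettl5 itself had 9.71 and 11.2 CPM in the KO libraries, against 123 and 127 CPM in the WT libraries, and 6.47 CPM in KO against 25.8 CPM in WT in the input. All 8 naive stem cell markers (Pou5f1, Nanog, Sox2 and others) were in the table. Their sum was 5001 and 4983 CPM (reads scaled to the library total) in KO footprints and 4525 and 4533 CPM in WT footprints. In the footprint test given below 5 of them rose, Tfcp2l1 fell (log2 change -0.18), and Esrrb and Sox2 did not pass. Of 8 fibroblast markers 3 were in the table, at a summed 30.6 and 22.7 CPM in KO and 365 and 372 CPM in WT, and of 9 endoderm markers 5 were, at 1836 and 1894 CPM in KO and 3220 and 3222 CPM in WT. All 8 of these non-stem-cell markers fell, and their part in the results below was not tested. In bulk lysates, fewer cells of a type and less mRNA per cell cannot be told apart. Genes of chromosomes 6 and 8 were shifted upwards as a whole in KO, and genes of chromosomes 11 and 16 downwards, in both footprints and input. In input the median log2 ratio of chromosome 16 (-0.13) was close to that of chromosome 7 (-0.12) and smaller in size than that of X (0.23). Only footprints set chromosome 16 apart. Members on these chromosomes are named as such below, apart from Kat2a and Kdm6b (chromosome 11) and Kdm7a (chromosome 6). The log2 footprint changes of these, less the median of the chromosome, were 0.19, 0.17 and -0.20. Setd4 lies on chromosome 16.

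Across the enzymes, footprints changed in both directions. In KO cells 12 members rose and 19 fell, while 38 did not pass the test (edgeR, adjusted p under 0.05 over all 9093 genes). That is 44.9% of the members, against 34.4% of all genes (18.3% higher and 16% lower). The median member had 123 to 500 footprint reads per library and the median gene 85 to 367, and a change is easier to call at a higher count. The median log2 change was -0.07 over the members and 0.00 over all genes, and with each chromosome's median removed it was -0.12 over the members. Members ranged from -0.79 for Setdb2 to 0.92 for Hdac7. The members that passed the test with a change of more than 1.5-fold were Hdac7, Sirt5 and Nsd2, which rose, and Setdb2, Sirt7, Setd1b and Kdm2b, which fell. For 15 members both KO libraries lay above both WT libraries and for 33 both lay below, while for 21 the genotypes overlapped. The shares over all genes were 29.8% above and 34.8% below, together 64.6%. With DESeq2 in place of edgeR the split was 8 higher and 7 lower, and over all genes 771 higher and 629 lower. The risen members numbered 7 without the second KO library, and the fallen members 12 when either the first KO or the second WT library was left out. Calls of 7 risen and 6 fallen members held in all 9 other settings tried, and calls that did not are named with their class. None of these settings removed the chromosome shift. Of those risen, Ezh2, Setd5, Prmt7 and Kat6a lie on chromosomes 6 and 8. Their changes less the chromosome median were 0.01, 0.11, 0.12 and 0.11, against 0.55 for Kmt5a, 0.41 for Kat5 and 0.92 for Hdac7. Of those fallen, Suz12 and Kat7 lie on chromosome 11, at -0.26 and -0.12 by this measure.

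**Figure D1:**
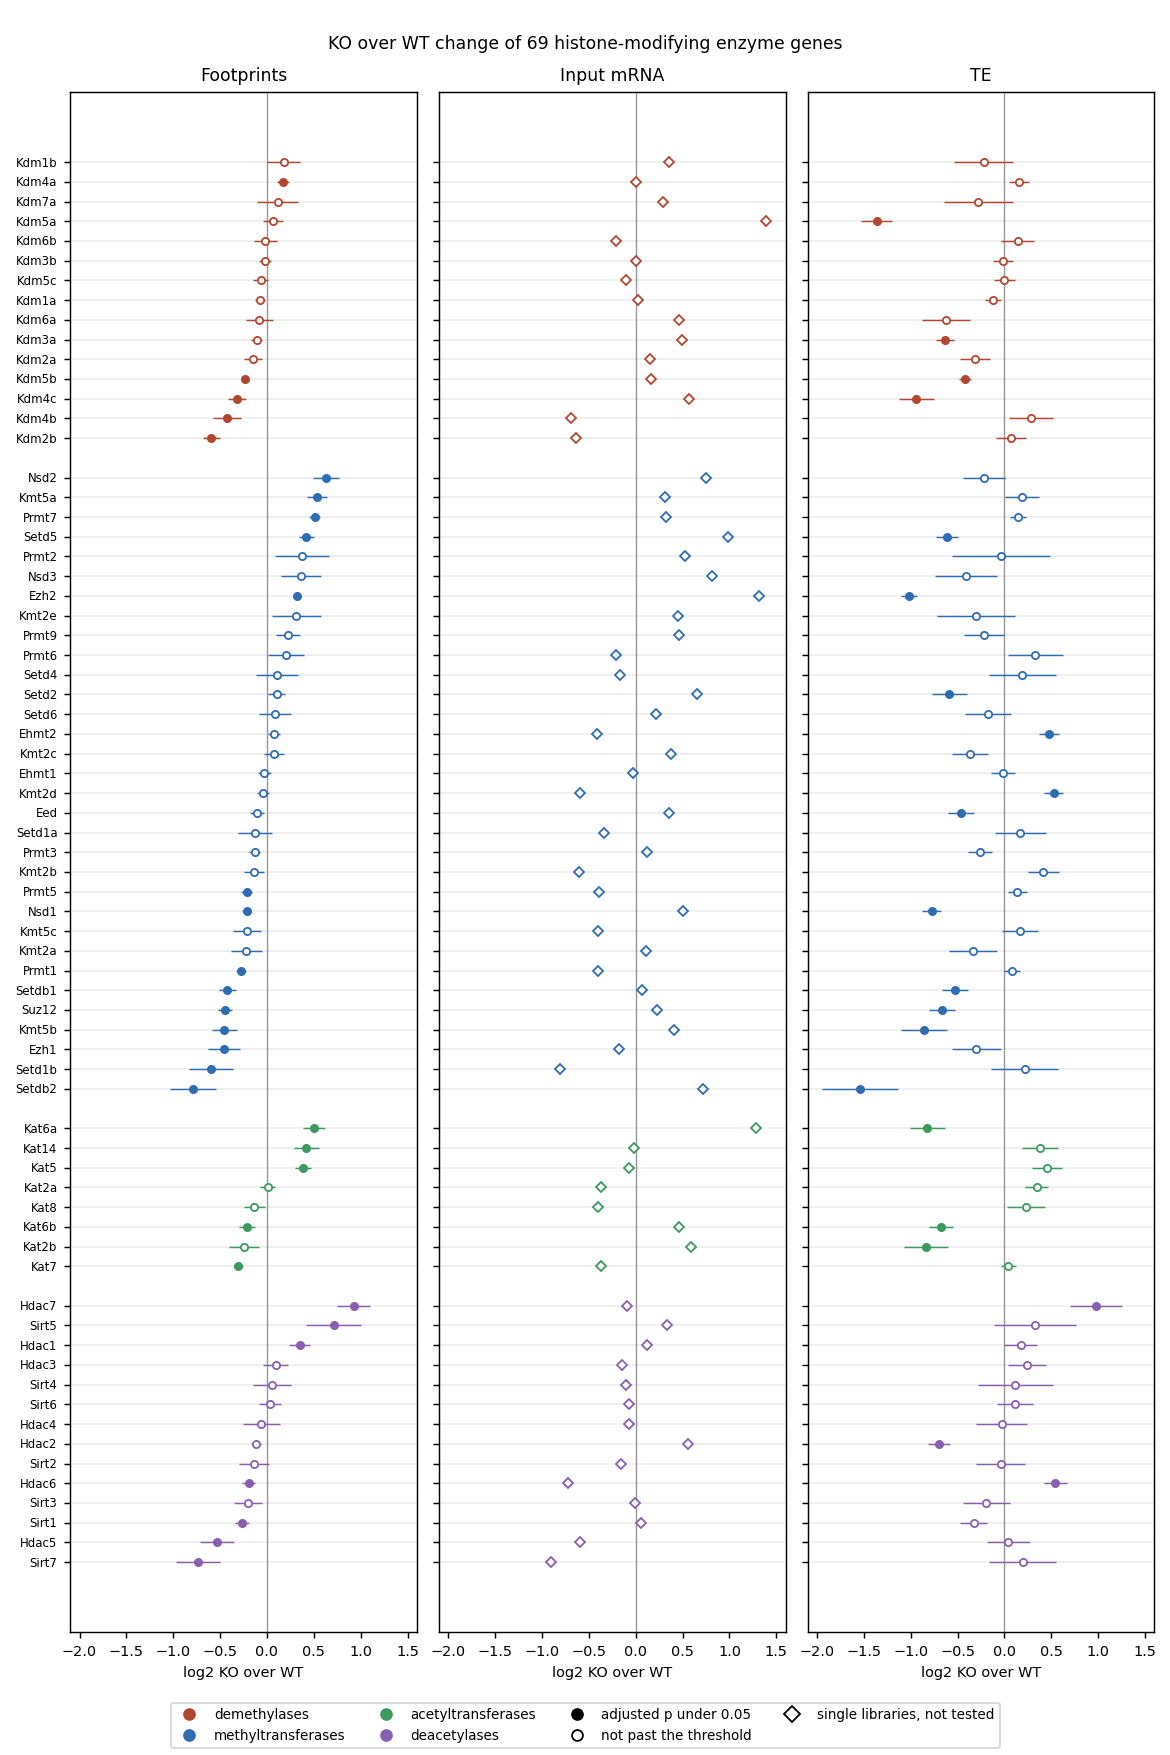
Change in Mettl5 KO over WT cells (log2) of the 69 histone-modifying enzymes, grouped by class and ordered by footprint change, for footprints (left), input mRNA (middle) and TE (right). Circles carry standard errors from 2 KO and 2 WT footprint libraries and are filled where the adjusted p was under 0.05 (footprints 12 higher and 19 lower, TE 4 higher and 17 lower), and diamonds are ratios of single input libraries with no test.

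Translational efficiency (TE), the footprint CPM of a gene divided by its input CPM, was lower more often than higher. In KO cells 4 members rose in TE and 17 fell (limma, adjusted p under 0.05), which is 30.4% of the members against 17.7% of all genes (4.88% higher and 12.8% lower). The changes were computed on log2(CPM + 1) and are given as log2 values. Median centring of each library gave 7 higher and 15 lower members, and 756 higher and 883 lower over all genes. The input of each genotype was a single library, so every TE change carries the unmeasured error of that input. When a spread of 0.2 on the log2 scale was added to each input, 0 members passed in either direction, and 1 higher and 12 lower had an unadjusted p under 0.05. Over all 9093 genes, 4 higher and 0 lower then passed, and 46 higher and 696 lower had an unadjusted p under 0.05. In the authors' deposited table, whose test leaves out input error altogether, 1 member passed after adjustment, the lower TE of Kdm5a. Of all genes 36 passed there as higher and 107 as lower. Without the first WT library, 5 of the calls were lost (adjusted p over the settings tried of 0.00230 to 0.505 for Kmt5b, 0.00294 to 0.741 for Setd2, 3.84e-04 to 0.758 for Setdb1, 6.78e-04 to 0.505 for Kat2b and 0.00326 to 0.466 for Hdac7).

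The 4 PRC2 genes among the members did not move together in footprints, while in TE all 4 changes were below 0 and 3 passed. Over all genes, 4819 of 9093 TE changes were below 0 and 12.8% of genes fell. Ezh2, the main methyltransferase of H3 lysine 27 in stem cells, rose in footprints, whereas Suz12, the scaffold that holds the complex together, and Ezh1, the weaker paralog of Ezh2, fell. Eed, which binds the finished mark and stimulates the enzyme, did not pass the footprint test. Ezh2 lies on a chromosome shifted upwards in KO, and Suz12 and Ezh1 on 1 shifted downwards. The 180 bases before 1 start site of each gene are shown, 5′ to 3′ on the gene's strand. The start is placed by the RefSeq promoter table (GRCm38.p6). For Ezh1, Eed and Suz12 that start is the outermost base of the annotated gene, whereas for Ezh2 it lies 240 bases inside the gene, so the Ezh2 stretch lies within the gene's own span. Ezh2 is at chr6:47595031-47595210 (minus strand), Ezh1 at chr11:101226464-101226643 (minus strand), Eed at chr7:89980977-89981156 (minus strand) and Suz12 at chr11:79992926-79993105 (plus strand). Capitals mark a CCAAT box (CCAAT, or ATTGG when on the other strand) or an NRF1-type motif (GCGC, any 2 bases, GCGC).
Ezh2: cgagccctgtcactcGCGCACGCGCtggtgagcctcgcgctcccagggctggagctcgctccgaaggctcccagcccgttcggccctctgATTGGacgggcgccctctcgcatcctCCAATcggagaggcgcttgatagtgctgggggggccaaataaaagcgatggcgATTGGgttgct
Ezh1: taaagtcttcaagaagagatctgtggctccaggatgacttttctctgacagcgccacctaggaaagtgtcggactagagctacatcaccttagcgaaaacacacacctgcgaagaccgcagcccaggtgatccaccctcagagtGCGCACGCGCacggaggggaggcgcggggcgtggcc
Eed: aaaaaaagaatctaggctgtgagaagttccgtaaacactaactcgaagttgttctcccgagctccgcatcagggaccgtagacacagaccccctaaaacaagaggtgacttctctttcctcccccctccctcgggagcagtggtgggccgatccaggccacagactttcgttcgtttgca
Suz12: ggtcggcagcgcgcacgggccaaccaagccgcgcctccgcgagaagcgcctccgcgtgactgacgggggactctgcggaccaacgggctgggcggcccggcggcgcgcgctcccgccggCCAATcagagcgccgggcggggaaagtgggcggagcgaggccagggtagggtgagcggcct
Ezh2 carried 3 CCAAT boxes in this stretch, beginning 90, 64 and 11 bases before the start, and Suz12 carried 1, at 61 bases before it. Ezh1 and Ezh2 each held 1 NRF1-type motif, at 36 and 165 bases before the start. In the stretch printed for Eed none of the motifs searched was present, and a CCAAT box began 26 bases after its start. An E2F-type motif (TTTNGCGC) began 4 bases after the start of Ezh2, outside the stretch shown. Over the 300-base windows (250 before to 50 after the start, both strands searched), CCAAT was present in 41.9% of the 74 promoters of the 55 matched members and in 37.4% of 32851 mouse promoters. The NRF1-type motif was present in 18.9% of member promoters and 6.23% of all, the ETS-type motif (CCGGAAG) in 17.6% and 8.86%, and the E2F-type motif in 1.35% and 1.38%. Member promoters were also richer in CpG, with a median of 23 CpG per window against 7 over all promoters. The 32851 promoters cover 27025 genes, against 9093 genes in the table. They are therefore not a matched background for genes with reads, and an excess particular to these enzymes was not tested. These matches describe the letters only.

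Ezh2 had 452 and 455 CPM in the KO libraries, against 379 and 363 CPM in the WT libraries. Both KO libraries were above both WT libraries, by 1.25-fold on average (log2 change 0.32 ± 0.05 SE, edgeR adjusted p = 4.49e-11). In the input Ezh2 stood at 261 CPM in KO against 105 CPM in WT, a difference far larger than that of its footprints, and its TE was 1.74 and 1.74 in KO, against 3.63 and 3.47 in WT (log2 change -1.02 ± 0.09 SE, limma adjusted p = 1.66e-08). Ezh2 lies on chromosome 6, where the median gene was 0.31 higher in footprints and 0.35 higher in input on the log2 scale. Suz12 had 119.9 and 107 CPM in the KO libraries, against 148 and 159.5 CPM in the WT libraries, with no overlap (-0.45 ± 0.08 SE, edgeR adjusted p = 4.01e-08). Its input was not lower but higher, at 89.7 CPM in KO against 76.4 CPM in WT, and its TE fell (-0.67 ± 0.14 SE, limma adjusted p = 0.00169). Ezh1 had the lowest footprint CPM of these genes, at 19.9 and 22.7 CPM in KO, against 28.9 and 30.9 CPM in WT (-0.46 ± 0.17 SE, edgeR adjusted p = 0.0246). Its TE change did not pass (-0.30 ± 0.26 SE, limma adjusted p = 0.491). Ezh1 and Suz12 both lie on chromosome 11, where the median gene was -0.19 in footprints. Eed had 135 and 117 CPM in KO, against 136 and 136 CPM in WT, so that 1 KO library lay just below the WT pair and the other further below (-0.11 ± 0.08 SE, edgeR adjusted p = 0.291), and its TE fell by 0.46 on the log2 scale (limma adjusted p = 0.0224). The lower TE of Eed was lost with median centring (adjusted p of 1.56e-04 to 0.810 over the settings tried). The call of Ezh1 was lost with DESeq2 and without the first KO, second KO or second WT library (adjusted p of 0.0171 to 0.241).

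Other genes of PRC2 changed in both directions as well. They were listed here as accessory, although the list also holds the histone-binding proteins Rbbp4 and Rbbp7. Of 7 listed genes measured, 2 rose and 4 fell in footprints, or 85.7% against 34.4% of all genes. Each is named here after its values were seen apart from Phf19. The Polycomb-like protein Phf19 changed most, at 28.6 and 28.2 CPM in KO, against 50.2 and 48.1 CPM in WT (-0.76 ± 0.14 SE, edgeR adjusted p = 1.26e-06). Its relative Mtf2 rose (0.16 ± 0.06 SE, edgeR adjusted p = 0.0140), as did the histone-binding protein Rbbp7 (0.43 ± 0.05 SE, edgeR adjusted p = 6.60e-18). Jarid2, which recruits the complex, fell (-0.38 ± 0.09 SE, edgeR adjusted p = 1.26e-04), as did Epop (-0.37 ± 0.14 SE, edgeR adjusted p = 0.0225) and Rbbp4 (-0.21 ± 0.04 SE, edgeR adjusted p = 1.81e-05). Epop lies on chromosome 11, and its change less the median of that chromosome was -0.19.

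**Figure D2:**
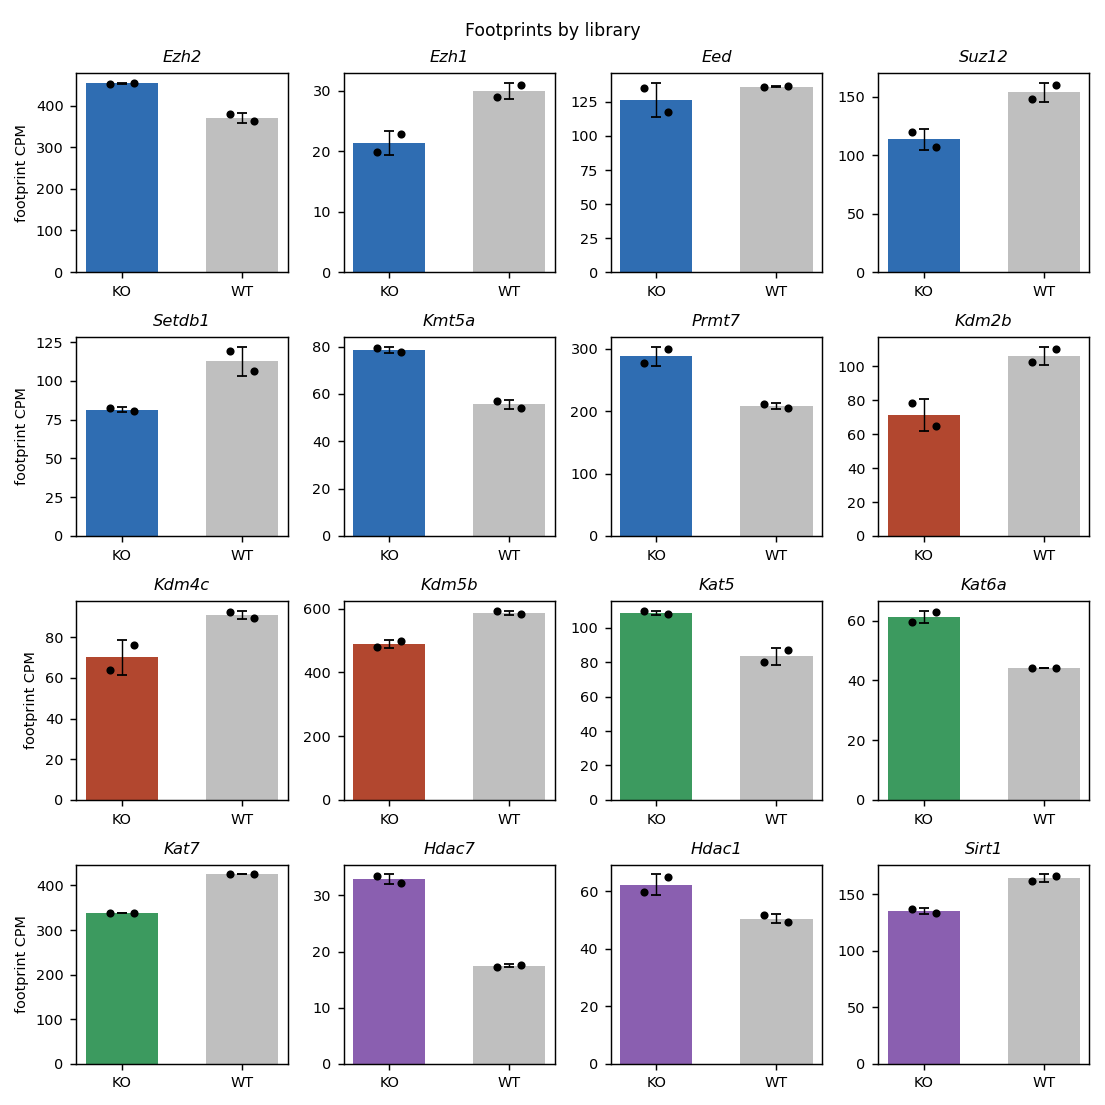
Footprint level (CPM, linear axis from 0, a separate scale per gene) of 16 enzymes, with KO to the left of WT. Points are the 2 libraries of a genotype, bars their mean and error bars the SD. For Ezh2, Kmt5a, Prmt7, Kat5, Kat6a, Hdac7 and Hdac1 both KO points lie above both WT points, and for Ezh1, Eed, Suz12, Setdb1, Kdm2b, Kdm4c, Kdm5b, Kat7 and Sirt1 both lie below. The 21 of 69 members whose genotypes overlapped are not drawn. Over all genes 64.6% showed no overlap.

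Among the other methyltransferases, the enzymes of H3 lysine 4 held 1 footprint call among 6, while those of H3 lysines 9 and 36 and of H4 lysine 20 held calls in both directions or in single genes. Over the class of 32, 5 rose, 9 fell and 18 did not pass in footprints (43.8% called, against 34.4% of all genes). In TE 2 rose and 9 fell (34.4% called, against 17.7% of all genes). The call among the H3 lysine 4 methyltransferases was a fall of Setd1b, at 12.1 and 8.93 CPM in KO, against 18.4 and 14.2 CPM in WT (-0.60 ± 0.23 SE, edgeR adjusted p = 0.0334), a level of few reads that lost its call with DESeq2 and without the second KO or first WT library (adjusted p of 0.0160 to 0.517). Kmt2a and Kmt2b, the MLL-type enzymes of promoters, had log2 changes of -0.22 ± 0.17 and -0.14 ± 0.10 SE and did not pass. Kmt2d, which marks enhancers, had 188 and 194 CPM in KO, against 201 and 199.8 CPM in WT, with both KO libraries just below the WT pair (-0.04 ± 0.06 SE, edgeR adjusted p = 0.633). Its input was lower, at 192 CPM in KO against 291 CPM in WT, and its TE rose (0.52 ± 0.10 SE, limma adjusted p = 5.91e-04).

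Setdb1, which silences endogenous retroviruses through H3 lysine 9 trimethylation, had 82.5 and 80.6 CPM in the KO libraries, against 119 and 106 CPM in the WT libraries. Both KO libraries were well below both WT libraries (-0.42 ± 0.09 SE, edgeR adjusted p = 1.66e-05), with the input at 143 CPM in KO against 137 CPM in WT, and the TE fell (-0.53 ± 0.14 SE, limma adjusted p = 0.0115). Its relative Setdb2 showed the largest fall of the members, at 6.31 and 9.79 CPM in KO, against 14.2 and 15.2 CPM in WT (-0.79 ± 0.24 SE, edgeR adjusted p = 0.00549), with a TE of 0.470 and 0.729 in KO, against 1.83 and 1.96 in WT (-1.54 ± 0.41 SE, limma adjusted p = 0.01003). Setdb2 is a low-abundance gene, and its footprint call was lost with DESeq2 and without the first KO or second WT library (adjusted p of 0.00403 to 0.159). Ehmt1 and Ehmt2, partners in H3 lysine 9 dimethylation, had footprint changes of -0.03 ± 0.07 and 0.07 ± 0.06 SE, neither of which passed. Their TE differed in outcome: -0.02 ± 0.13 SE for Ehmt1, which did not pass, and 0.48 ± 0.10 SE for Ehmt2, which rose (limma adjusted p = 0.00198). The input of Ehmt2 was 272 CPM in KO against 363 CPM in WT.

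Of the NSD enzymes, which place the lower methylation states of H3 lysine 36, Nsd1 and Nsd2 changed in opposite directions, and Nsd3, on chromosome 8, did not pass (0.36 ± 0.21 SE). Nsd1, with the higher footprint CPM, had 328 and 376 CPM in KO, against 443 and 406 CPM in WT, with both KO libraries lower (-0.22 ± 0.05 SE, edgeR adjusted p = 3.53e-05). Its input was 428 CPM in KO against 301 CPM in WT, and its TE was lower (-0.78 ± 0.10 SE, limma adjusted p = 5.65e-06). Nsd2 had 43.7 and 51.3 CPM in KO, against 34.0 and 30.5 CPM in WT, higher in both KO libraries (0.63 ± 0.14 SE, edgeR adjusted p = 4.36e-05). The call of Nsd1 was lost without the first KO library (adjusted p of 3.19e-06 to 0.0524 over the settings) and that of Nsd2 without the second (adjusted p of 3.23e-05 to 0.0650). Setd2, which trimethylates the same residue, had 99.03 and 89.8 CPM in KO, against 96.2 and 84.1 CPM in WT, overlapping between genotypes (0.10 ± 0.09 SE, edgeR adjusted p = 0.399), and its TE fell (-0.59 ± 0.19 SE, limma adjusted p = 0.0319), a call also lost with median centring.

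Kmt5a, the only enzyme that places the first methyl group on H4 lysine 20, rose to 79.6 and 77.8 CPM in the KO libraries, against 57.0 and 54.2 CPM in the WT libraries (0.53 ± 0.10 SE, edgeR adjusted p = 4.03e-06). Kmt5b, which adds further methyl groups to the same residue, fell to 36.9 and 38.6 CPM in the KO libraries, against 49.4 and 54.6 CPM in the WT libraries (-0.45 ± 0.13 SE, edgeR adjusted p = 0.00234). Its close relative Kmt5c had 32.0 and 31.1 CPM in KO, against 38.3 and 36.5 CPM in WT, and did not pass (-0.22 ± 0.15 SE, edgeR adjusted p = 0.265). Thus the enzyme of the first step and 1 of the 2 enzymes of the later steps moved in opposite directions, each without overlap between genotypes. The footprint call of Kmt5b was lost with DESeq2 and without the second WT library (adjusted p of 0.00129 to 0.132). Its TE fell (-0.86 ± 0.25 SE, limma adjusted p = 0.0172), a call lost without either WT library.

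Of 7 arginine methyltransferases 1 rose and 2 fell in footprints (42.9% called, against 34.4% of all genes). Prmt1, which makes most asymmetric dimethylarginine, fell to 269 and 293 CPM in the KO libraries, against 347 and 351 CPM in the WT libraries (-0.28 ± 0.05 SE, edgeR adjusted p = 5.54e-07). Prmt5, the main enzyme of symmetric dimethylarginine, had 189 and 213 CPM in the KO libraries, against 240.0 and 239.5 CPM in the WT libraries, also without overlap (-0.21 ± 0.06 SE, edgeR adjusted p = 0.00153). Neither DESeq2 nor a fit that left out the first KO library kept this call (adjusted p of 3.62e-04 to 0.104). The input of both was lower in KO, at 388 CPM in KO against 511 CPM in WT for Prmt1 and 310.4 CPM in KO against 409 CPM in WT for Prmt5, and the TE of neither passed. Prmt7, which adds single methyl groups, rose to 278 and 299 CPM in the KO libraries, against 211 and 205 CPM in the WT libraries (0.51 ± 0.06 SE, edgeR adjusted p = 3.51e-18). It lies on chromosome 8, where the median gene was 0.39 higher. Setd5, a SET-domain protein on chromosome 6, had 122 and 134 CPM in KO, against 101 and 96.7 CPM in WT (0.42 ± 0.08 SE, edgeR adjusted p = 2.13e-06), while its input was 505 CPM in KO against 255 CPM in WT and its TE fell (-0.61 ± 0.12 SE, limma adjusted p = 5.91e-04).

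Footprints of the demethylases changed about as often as those of all genes. Of 15, 1 rose, 4 fell and 10 did not pass, a share of 33.3% against 34.4% of all genes. In TE 0 rose and 4 fell, a share of 26.7% against 17.7% of all genes. Kdm2b, an H3 lysine 36 demethylase whose zinc finger brings a Polycomb complex to CpG islands, had 78.2 and 64.8 CPM in the KO libraries, against 102 and 110.1 CPM in the WT libraries. Both KO libraries were below both WT libraries, at 0.663 times the WT level on average (-0.59 ± 0.09 SE, edgeR adjusted p = 3.01e-09), and the input was lower as well, at 93.0 CPM in KO against 146 CPM in WT, while the TE did not pass (0.07 ± 0.16 SE, limma adjusted p = 0.827). Kdm5b, a demethylase of H3 lysine 4, had the highest footprint CPM of the members, not corrected for coding length. It had 481 and 499 CPM in the KO libraries, against 592 and 582 CPM in the WT libraries (-0.23 ± 0.04 SE, edgeR adjusted p = 3.75e-07). Its input was 766 CPM in KO against 684 CPM in WT and its TE fell (-0.42 ± 0.07 SE, limma adjusted p = 6.36e-05).

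Kdm5a (chromosome 6, 120364099 to 120444574 of GRCm38), a relative of Kdm5b with the same substrate, had overlapping footprints and a higher input. Its footprints were 66.5 and 71.1 CPM in the KO libraries, against 67.2 and 67.4 CPM in the WT libraries, overlapping between genotypes (0.06 ± 0.10 SE, edgeR adjusted p = 0.679), whereas its input was 145 CPM in KO against 54.7 CPM in WT. Its TE was 0.458 and 0.490 in KO, against 1.23 and 1.23 in WT, the second largest fall among the members (-1.36 ± 0.17 SE, limma adjusted p = 3.03e-06). Kdm5a lies on chromosome 6, as does Kdm3a, an H3 lysine 9 demethylase whose footprints were 232 and 244 CPM in KO, against 261 and 263 CPM in WT (-0.11 ± 0.06 SE, edgeR adjusted p = 0.113) and whose TE fell (-0.63 ± 0.10 SE, limma adjusted p = 5.50e-05). The X-linked relative Kdm5c had 109 and 113 CPM in KO, against 121 and 117 CPM in WT, and neither its footprints (-0.07 ± 0.08 SE, edgeR adjusted p = 0.566) nor its TE (0.00 ± 0.11 SE, limma adjusted p = 0.994) passed.

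In the Kdm4 family, demethylases of H3 lysines 9 and 36, the members differed. Kdm4c fell, at 64.1 and 76.3 CPM in KO, against 92.5 and 89.4 CPM in WT (-0.32 ± 0.10 SE, edgeR adjusted p = 0.00449), with an input of 61.6 CPM in KO against 41.4 CPM in WT and a lower TE (-0.94 ± 0.18 SE, limma adjusted p = 7.57e-04). Kdm4b fell as well, at 27.2 and 28.8 CPM in KO, against 34.6 and 40.5 CPM in WT (-0.42 ± 0.15 SE, edgeR adjusted p = 0.0184), but with a lower input, 51.6 CPM in KO against 84.0 CPM in WT, and a TE that did not pass (0.28 ± 0.23 SE, limma adjusted p = 0.457). Kdm4a was the 1 demethylase that rose, at 187 and 198 CPM in KO, against 168 and 178 CPM in WT (0.18 ± 0.06 SE, edgeR adjusted p = 0.0207). With DESeq2 the calls of all 3 were lost, and with limma that of Kdm4a (adjusted p = 0.0601). Leaving out 1 library ended the call of Kdm4a (second KO or first WT), Kdm4b (first KO, second KO or second WT) and Kdm4c (first KO), with adjusted p of 0.372 and 0.0896 for Kdm4a without those libraries, 0.0120 to 0.366 for Kdm4b and 0.00210 to 0.127 for Kdm4c over the settings.

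Kdm1a, which removes methyl groups from H3 lysine 4 within a corepressor, had 273 and 275 CPM in KO, against 298 and 292 CPM in WT, lower in both KO libraries by less than the test could call (-0.08 ± 0.05 SE, edgeR adjusted p = 0.258). The H3 lysine 27 demethylases Kdm6a and Kdm6b had changes of -0.08 ± 0.14 and -0.02 ± 0.12 SE, with overlapping libraries, and neither passed.

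The acetyltransferases held 3 members that rose and 2 that fell among 8 (62.5% called, against 34.4% of all genes). In TE 0 rose and 3 fell (37.5% called, against 17.7% of all genes). Kat5, the catalytic subunit of the Tip60 complex, rose to 109.7 and 108 CPM in the KO libraries, against 80.01 and 87.0 CPM in the WT libraries (0.38 ± 0.09 SE, edgeR adjusted p = 8.80e-05), with an input of 55.6 CPM in KO against 58.6 CPM in WT. Kat6a, a member of the same MYST family, rose to 59.7 and 62.8 CPM in the KO libraries, against 44.3 and 44.1 CPM in the WT libraries (0.50 ± 0.12 SE, edgeR adjusted p = 1.79e-04). The input of Kat6a was 105 CPM in KO against 42.7 CPM in WT, and its TE fell (-0.82 ± 0.19 SE, limma adjusted p = 0.00338). Kat6a lies on chromosome 8. Its paralog Kat6b had 93.7 and 93.0 CPM in KO, against 105 and 113 CPM in WT, lower in both KO libraries (-0.22 ± 0.09 SE, edgeR adjusted p = 0.0368), with an input of 221 CPM in KO against 160.3 CPM in WT and a lower TE (-0.68 ± 0.13 SE, limma adjusted p = 5.53e-04). Both paralogs had a higher input and a lower TE. Their opposite footprint changes rest on a Kat6b call that was lost in 5 of 9 other settings, and the change of Kat6a less the median of chromosome 8 was 0.11.

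Kat7, the MYST enzyme that acetylates H3 lysine 14, fell to 339 and 338 CPM in the KO libraries, against 425 and 425 CPM in the WT libraries (-0.31 ± 0.05 SE, edgeR adjusted p = 2.25e-09). Its input was lower too, at 316 CPM in KO against 408 CPM in WT, and its chromosome is 11. Kat8, which acetylates H4 lysine 16, had 53.9 and 59.9 CPM in KO, against 63.6 and 64.4 CPM in WT, and did not pass (-0.13 ± 0.11 SE, edgeR adjusted p = 0.367). Kat14, a subunit of the ATAC complex, had 45.6 and 48.1 CPM in KO, against 38.6 and 34.2 CPM in WT (0.42 ± 0.13 SE, edgeR adjusted p = 0.00756). The catalytic subunits of the SAGA-type complexes did not pass in footprints, with 0.01 ± 0.08 SE for Kat2a and -0.24 ± 0.16 SE for Kat2b. Kat2b fell in TE (-0.84 ± 0.23 SE, limma adjusted p = 0.0143), whereas the TE of Kat2a, at 0.34 ± 0.12 SE, did not pass. The footprint call of Kat14 was lost with DESeq2 and without the second KO or second WT library (adjusted p of 0.00615 to 0.202). The 5 settings for Kat6b were DESeq2, the replicate number as a block and the fits without the first KO, second KO or second WT library (adjusted p of 0.0192 to 0.364).

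The deacetylases held the largest rise of all members. Of 14, 3 rose and 4 fell in footprints (50% called, against 34.4% of all genes). In TE 2 rose and 1 fell (21.4% called, against 17.7% of all genes). Hdac7 (chromosome 15, 97792661 to 97844502 of GRCm38), a class IIa enzyme that acts with MEF2 factors, had 33.5 and 32.3 CPM in the KO libraries, against 17.3 and 17.6 CPM in the WT libraries. The KO libraries held 1.90 times the WT level (0.92 ± 0.17 SE, edgeR adjusted p = 1.15e-06), with an input of 30.8 CPM in KO against 33.0 CPM in WT and a higher TE (0.97 ± 0.28 SE, limma adjusted p = 0.0167). Hdac5, of the same class, moved the other way, at 17.0 and 19.6 CPM in KO, against 27.5 and 27.1 CPM in WT (-0.53 ± 0.18 SE, edgeR adjusted p = 0.0137), with an input of 110.0 CPM in KO against 167 CPM in WT. Hdac5 and Sirt7 lie on chromosome 11. The tubulin deacetylase Hdac6 had 149.5 and 132 CPM in KO, against 152 and 168 CPM in WT (-0.20 ± 0.07 SE, edgeR adjusted p = 0.0199), but its input was far lower in KO, at 196 CPM in KO against 324 CPM in WT, and its TE rose (0.54 ± 0.12 SE, limma adjusted p = 0.00279).

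The class I enzymes of the NuRD, Sin3 and CoREST complexes did not share a change. Hdac1 rose to 59.7 and 64.8 CPM in the KO libraries, against 51.6 and 49.3 CPM in the WT libraries (0.35 ± 0.11 SE, edgeR adjusted p = 0.00968). Hdac2, its close relative and the one with the higher footprint CPM, had 217 and 244 CPM in the KO libraries, against 246 and 263 CPM in the WT libraries (-0.12 ± 0.06 SE, edgeR adjusted p = 0.0896) and did not pass. The TE of Hdac2 was 1.44 and 1.61 in KO, against 2.40 and 2.57 in WT (-0.70 ± 0.11 SE, limma adjusted p = 1.16e-04), with an input of 151 CPM in KO against 103 CPM in WT. Hdac3, the enzyme of the NCoR complex, had 41.7 and 41.5 CPM in KO, against 37.2 and 40.9 CPM in WT, with both KO libraries just above the WT pair, and did not pass (0.09 ± 0.14 SE, edgeR adjusted p = 0.643).

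Among sirtuins, which consume NAD+, Sirt1 had the highest footprint CPM and fell to 137 and 134 CPM in the KO libraries, against 162 and 167 CPM in the WT libraries (-0.27 ± 0.07 SE, edgeR adjusted p = 9.84e-04). The nucleolar enzyme Sirt7 fell to 10.2 and 9.21 CPM in the KO libraries, against 17.0 and 15.9 CPM in the WT libraries (-0.74 ± 0.23 SE, edgeR adjusted p = 0.00683), with an input of 10.9 CPM in KO against 21.2 CPM in WT. Sirt6, of heterochromatin and telomeres, had 58.7 and 55.0 CPM in KO, against 53.3 and 57.6 CPM in WT, and did not pass (0.03 ± 0.11 SE, edgeR adjusted p = 0.869). The mitochondrial enzyme Sirt5 had 7.77 and 7.78 CPM in KO, against 3.97 and 5.19 CPM in WT (0.71 ± 0.30 SE, edgeR adjusted p = 0.0497), at the edge of the threshold and among the lowest levels of the members. DESeq2 ended the calls of Hdac1, Hdac5, Hdac6, Sirt1 and Sirt7 and gave no adjusted value for Sirt5. The call of Hdac6 was also lost with limma and that of Sirt5 with library totals alone. Leaving out the second KO library ended those of Hdac1, Hdac5, Hdac6, Sirt5 and Sirt7, the second WT library those of Hdac1, Hdac5, Hdac6 and Sirt5, the first KO library those of Hdac5 and Sirt5, and the first WT library that of Sirt5. The adjusted p over the settings was 0.00779 to 0.245 for Hdac1, 0.00939 to 0.177 for Hdac5, 0.00800 to 0.533 for Hdac6, 2.95e-04 to 0.0810 for Sirt1, 0.0451 to 0.285 for Sirt5 and 0.00502 to 0.170 for Sirt7.

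Set side by side, the 4 classes had footprint medians just below 0, while their medians in input and TE lay on either side of 0. The median footprint change was -0.08 for demethylases, -0.04 for methyltransferases, -0.06 for acetyltransferases and -0.09 for deacetylases. The median TE change was -0.22 for demethylases and -0.22 for methyltransferases, against -0.03 over all genes, and 0.14 for acetyltransferases and 0.11 for deacetylases. The median input ratio was 0.15 for demethylases, 0.22 for methyltransferases, -0.05 for acetyltransferases and -0.09 for deacetylases, against 0.05 over all genes. Of 32 methyltransferases 6 had an input more than 1.5-fold higher in KO and 3 more than 1.5-fold lower. Of 14 deacetylases 0 were higher and 3 lower. Over all members 9 were higher and 8 lower, and over all genes 15.1% and 6.17%. Without the members on chromosomes 6, 8, 11 and 16, the median TE change was -0.03 for 23 methyltransferases, against -0.04 for all genes off these chromosomes. It was -0.12 for 11 demethylases, 0.23 for 5 acetyltransferases and 0.11 for 12 deacetylases. Differences between classes were not tested.

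Levels of TE spread over a wide range among the enzymes. In WT cells Sirt1 had the highest TE, 4.46 ± 0.0955 (SD, n = 2), at the 94.9 percentile of all genes, and in KO cells 3.54 ± 0.0607. Setd2 stood at 2.40 ± 0.165 in KO and 3.66 ± 0.346 in WT, and Ezh2 at 1.74 ± 0.00617 in KO and 3.55 ± 0.112 in WT. In WT these neighbours did not differ beyond their spread, while in KO Ezh2 was below Setd2. In WT the highest demethylase was Kdm4c, at 1.14 ± 0.140 in KO and 2.20 ± 0.0520 in WT, with Kdm7a and Kdm1b above it in KO. The highest acetyltransferase in WT was Kat5, at 1.96 ± 0.0219 in KO and 1.43 ± 0.0848 in WT. At the low end were Hdac5 (0.166 ± 0.0167 in KO and 0.163 ± 0.00182 in WT, at the 2.34 percentile), Kmt5c (0.252 ± 0.00837 in WT), Kdm6b (0.296 ± 0.00350 in WT) and Kat14 (0.320 ± 0.0270 in WT). The median TE of the members was 0.707 in KO and 0.778 in WT, and of all genes 0.854 in KO and 0.890 in WT. For the 8 acetyltransferases the median level was lower in KO, at 0.556 against 0.857 in WT, although the median of their changes was above 0, since the medians of levels fall on different genes. These SDs are between footprint libraries that share 1 input, and hold no input error.

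**Figure D3:**
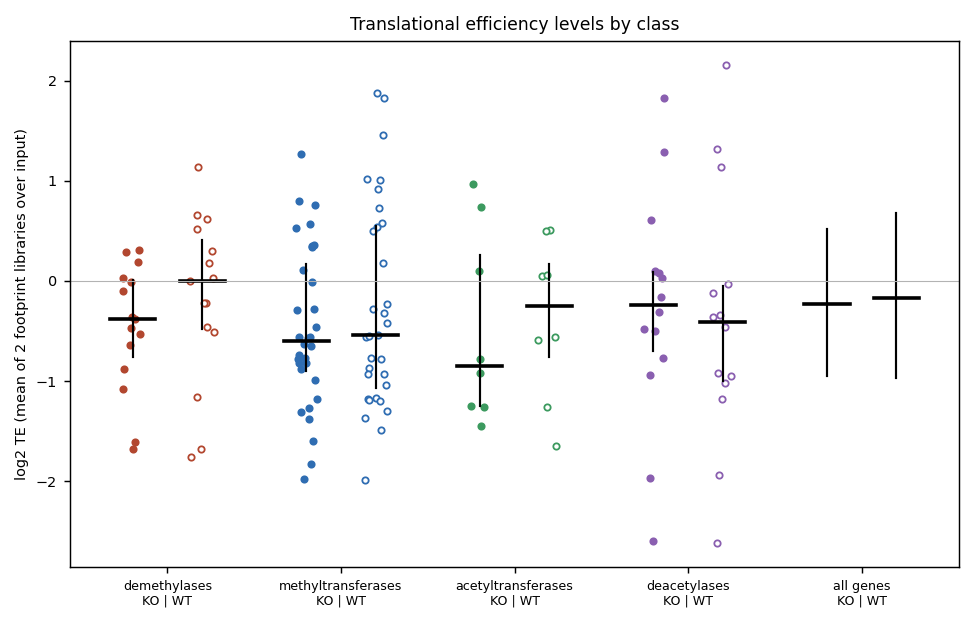
Translational efficiency (footprint CPM over input CPM, on a log2 axis) of the enzymes by class, with KO (filled) to the left of WT (open). Each point is the mean of 2 footprint libraries over 1 input library, the thick bar marks the median and the thin line the quartiles, and all genes are drawn without points. The demethylase median was 0.768 in KO and 1.003 in WT.

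Every TE call among the members went with an input ratio of the opposite sign. All 17 members with a lower TE had a higher input in KO, with a median log2 ratio of 0.55, while of the same 17 the footprints of 3 rose, of 8 fell and of 6 did not pass. All 4 members with a higher TE had a lower input in KO. Over all genes 1136 of 1165 genes with a lower TE had a higher input, and 371 of 444 with a higher TE a lower input. TE is footprints less input on the log2 scale, so its construction favours this pattern. Across the 69 members the input ratio and the footprint change had a Pearson correlation of 0.42 and a Spearman rho of 0.36, and across all 9054 genes with a position 0.52 and 0.46. These are correlations across genes of the same libraries, given as descriptions.

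**Figure D4:**
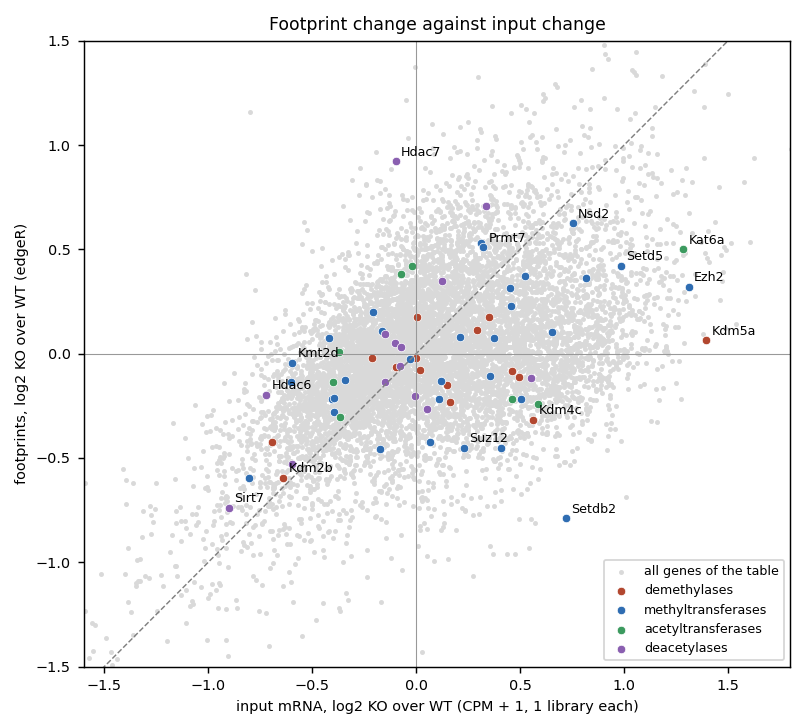
Log2 footprint change (vertical axis) against log2 input ratio (horizontal axis) of Mettl5 KO over WT for the 69 enzymes, coloured by class, over all genes in grey (genes beyond the axes are not drawn). On the dashed line both changes are equal, and a gene below it has a lower TE in KO. Kdm5a, Ezh2 and Kat6a lie furthest to the right and well below the line, and Hdac7 lies furthest above it.

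Input ratios were higher in long genes than in short ones. Across the members, genomic span and input ratio had a Spearman rho of 0.54 (Pearson 0.48), span and TE change -0.58 (Pearson -0.49), and span and footprint change 0.00 (Pearson 0.03). Across all 9054 genes the Spearman values were 0.27 for input, -0.36 for TE and -0.08 for footprints. Of 15 members under 20 kb, 1 had an input ratio above 0, with a median of -0.37, and 0 fell in TE. Of 15 members of 80 kb or more, 12 had a ratio above 0, with a median of 0.46, and 7 fell in TE. Of the 39 members between, 25 had a ratio above 0, and 10 fell in TE. Over all genes the median input ratio was -0.08 under 20 kb, 0.14 between and 0.25 at 80 kb or more. In the same order, 1631 of 3903, 2240 of 3669 and 1013 of 1482 genes had a ratio above 0, and 202, 656 and 300 fell in TE. With 1 input library per genotype, a difference between those libraries and a difference between genotypes cannot be told apart.

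The chromosomes that shifted as a whole (6, 8, 11 and 16) held 18 members. Of these 4 rose and 5 fell in footprints, where 51.9% of all genes were called. All 4 that rose (Ezh2, Setd5, Prmt7 and Kat6a) lie on chromosomes 6 and 8, and all 5 that fell (Ezh1, Suz12, Kat7, Hdac5 and Sirt7) on chromosome 11. On chromosome 11, 275 of 772 genes fell and 44 rose, and on chromosomes 6 and 8 213 of 417 and 338 of 521 rose. Of the 51 members on other chromosomes 8 rose and 14 fell in footprints, where 29.4% of all genes were called. In TE, 0 rose and 6 fell of the 18, where 17.3% of all genes were called, and 4 rose and 11 fell of the 51, where 17.8% were. For members the share called in footprints was 50% on these chromosomes and 43.1% off them, and in TE 33.3% on and 29.4% off. On chromosome 6 alone 4 of 5 members fell in TE, where 69 of all 417 genes fell and 22 rose. Less the median of its chromosome, the footprint change of Ezh2 was 0.01, so that its footprints moved no more than its chromosome did. Its input ratio less that median was 0.97, and its TE change -0.93. The same value in footprints was 0.11 for Setd5, 0.12 for Prmt7 and 0.11 for Kat6a. On chromosome 11 it was -0.55 for Sirt7, -0.34 for Hdac5, -0.27 for Ezh1, -0.26 for Suz12 and -0.12 for Kat7.

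**Figure D5:**
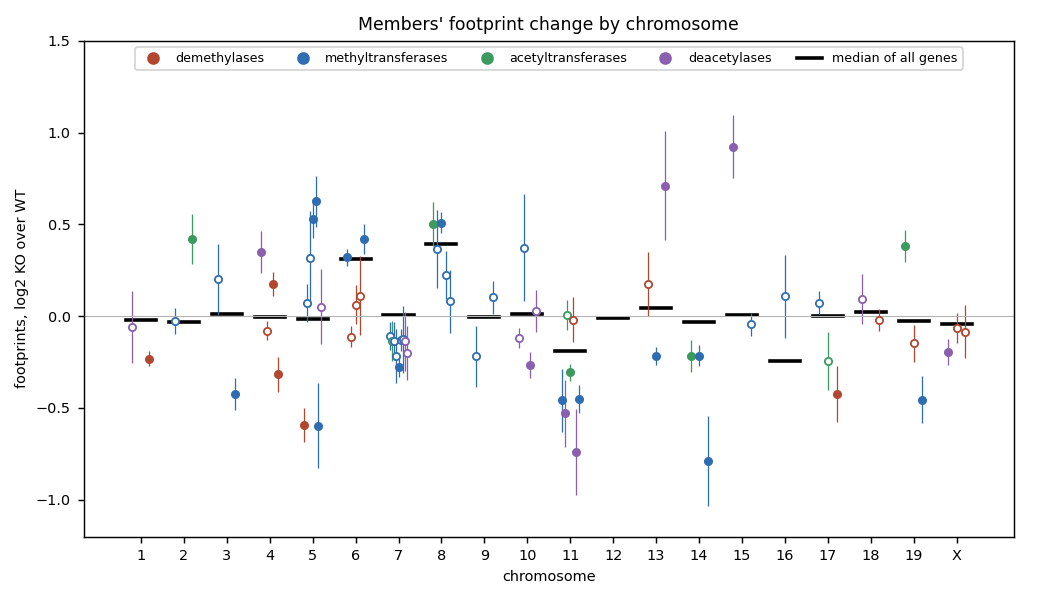
Log2 footprint change of each enzyme in Mettl5 KO over WT by chromosome, with standard errors, filled where the edgeR adjusted p was under 0.05, and with the black bar at the median of all genes of that chromosome. The medians of all genes were 0.31 on chromosome 6, 0.39 on chromosome 8, -0.19 on chromosome 11 and -0.25 on chromosome 16, and those of the other chromosomes lay within 0.05 of 0.

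Other genes of histone modification were followed in lists of further enzymes and complex subunits, with 90 of 99 genes in the table. In footprints 17 rose and 15 fell (35.6%, against 34.4% of all genes), and in TE 7 rose and 18 fell (27.8%, against 17.7%). Of the 4 furthest in footprints, Jmjd1c, a relative of the Kdm3 demethylases, had 66.0 and 50.7 CPM in KO, against 120.0 and 94.2 CPM in WT (-0.85 ± 0.10 SE, edgeR adjusted p = 6.62e-16), and its TE fell (-1.06 ± 0.24 SE, limma adjusted p = 0.00265). Uty, the Y-linked copy of Kdm6a, changed by 0.75 (edgeR adjusted p = 5.55e-04) and Ing3, of the Tip60 complex, by 0.60 (edgeR adjusted p = 1.90e-07). Reads of Uty and Kdm6a may be shared, since the copies are alike. The other largest TE changes were falls, in Taf1, the largest subunit of TFIID (-1.10 ± 0.16 SE, limma adjusted p = 2.74e-05), Jade3, of the Kat7 complex (-1.06 ± 0.19 SE, limma adjusted p = 3.59e-04), and Suv39h2, which trimethylates H3 lysine 9 (-0.94 ± 0.29 SE, limma adjusted p = 0.0272). Of 28 subunits of acetyltransferase complexes 3 rose and 1 fell in footprints (14.3% called, against 34.4% of all genes). Of 22 subunits of deacetylase complexes 4 rose and 5 fell (40.9%). Of 11 subunits of the Set1 and MLL complexes 3 rose and 0 fell (27.3%).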

How the data were processed

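Footprints were deposited as read counts per gene, per the file headers, and the authors also gave footprint CPM, which fixed the library totals used here. For input the authors gave CPM alone. Their deposited TE ratio divides the footprint CPM by the input CPM, and comes with a log2 fold and an unadjusted p-value. Bowtie and mm10 are named per the submitters' processing notes, and the sources used here do not give the counter, annotation or gene filter. A further input column in each genotype (2 in all) repeated the first and was not used.

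The footprint test was edgeR 4.0.16 (TMM, quasi-likelihood) on 2 KO and 2 WT libraries, with Benjamini-Hochberg adjustment over all 9093 genes. No gene was removed as low. TE was tested with limma 3.58.1 (trend) on log2(CPM + 1) as a genotype-by-library-type interaction in 6 libraries. Its 2 residual degrees of freedom come from footprints, so each input is assumed to vary like a footprint library. Adding 1 CPM understates changes of low genes. Input ratios compare single libraries and were not tested. Scripts were tested on simulated data. Replicate numbers did not pair the libraries (correlation of deviations -0.03).

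The members and lists were chosen with earlier results of these data known. In each class the text names up to 4 members with the largest passed changes in footprints and in TE, the highest and lowest WT TE, a fixed set of well-studied enzymes, and up to 4 other genes per test. Kdm4a, Prmt7, Setd5 and the other PRC2 accessory genes were named after their values were seen. Role groups and span bins were also set then. Alternatives included DESeq2 1.42.0.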

Additional observations from a re-analysis of the deposited data

How the results depend on the processing

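The count of risen members in footprints (12) was 7 to 11 when 1 library was left out, and that of fallen members (19) was 12 to 18, or 7 with DESeq2. With the replicate number as a block the counts were 12 and 18 in footprints and 4 and 17 in TE, and the only call lost was that of Kat6b in footprints. The count of members higher in TE (4) was 3 to 7 when 1 library was left out, 7 with median centring, 0 with an added input spread and 0 with the authors' deposited p-values after adjustment. The count lower in TE (17) was 0 with the added spread, 1 with the deposited p-values and 11 off chromosomes 6, 8, 11 and 16. Of 21 TE calls none was kept in all settings, because the added spread ended them all.

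The median footprint change of demethylases was -0.12 with the chromosome median removed. The median footprint change of methyltransferases was -0.12 in that setting and -0.0692 for a mean of at least 10 CPM. The median footprint change of acetyltransferases was -0.00434 with the chromosome median removed. The median footprint change of deacetylases was -0.111 with library totals, -0.113 for a mean of at least 10 CPM, -0.125 with limma and -0.0879 to -0.0437 when 1 library was left out. The median TE change of demethylases was -0.14 with the chromosome median removed, -0.13 with median centring, -0.18 with 5 CPM added and -0.25 to -0.12 when 1 library was left out. The median TE change of methyltransferases was -0.24 with the chromosome median removed, -0.12 with median centring and -0.24 to -0.16 when 1 library was left out. The median TE change of acetyltransferases was 0.23 with median centring and 0.0565 with the chromosome median removed. The median TE change of deacetylases was 0.205 with median centring, 0.0767 for a mean of at least 10 CPM, 0.15 with the chromosome median removed and 0.0863 to 0.14 when 1 library was left out. The causes were not tested, and none of these values turned its sign. A planned edgeR interaction on reads recovered from the input CPM was not run.

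With 2 libraries per genotype and 2060010 reads in the shallowest, low genes such as Setdb2, Sirt5, Sirt7 and Setd1b rest on few reads, and a member that did not pass is not shown to be level.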
